A study of Mus musculus with 8 samples.

Results

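Cell cycle and DNA replication genes were examined in mast cells (MC) sorted from tumors and from the peritoneal cavity of tumor-bearing mice that received placebo or the anti-VEGFR2 antibody DC101. The set was a list of 40 genes, 18 of S phase and 22 of mitosis. A gene was taken as measured where the array annotation gave a transcript cluster (the probe set that stands for a gene) to its symbol alone. This held for 37 genes, 16 of S phase and 21 of mitosis, out of 21320 genes with such a cluster. Ccne2, Mcm2 and Ccnb1 had no cluster of their own and were not analysed here. Ccne2 shared its cluster with Ints8. No measured gene had more than 1 cluster of its own.

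Gene expression was measured on 8 Affymetrix mouse gene arrays. All mice were C57BL/6J and carried subcutaneous tumors of Panc02, a mouse pancreatic cancer cell line. Once tumors had reached 100 mm3, mice were given placebo or DC101 at 40 mg/kg, and MC were taken from end-stage tumors or by peritoneal lavage and sorted with DAPI, CD45, CD11b, CD117 and FceRI. This gave 4 groups of 2 arrays, namely tumor placebo, tumor DC101, peritoneum placebo and peritoneum DC101. Neither the labels nor the main text of the methods tell if the arrays of a group came from separate mice or from pools, so every p-value below covers only the spread between these arrays, which may be technical. Values are on the log2 scale after RMA, which corrects the background and gives all arrays the same distribution at the level of probes. A change shared by all genes would therefore not be seen, and weak expression and background look the same. Levels of different genes are not on a common scale. Summed levels of gene lists, used below, are weighted toward the genes with the highest values.

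A cell that divides first copies its DNA in S phase and then shares the copies out in mitosis. Origins of replication are licensed when ORC, CDC6 and CDT1 load the MCM helicase, which CDC45 and the GINS complex then activate, while ribonucleotide reductase, thymidylate synthase and thymidine kinase supply the nucleotides. Genes of this phase are classic targets of E2F transcription factors. Genes of G2 and mitosis, among them cyclin B, the Aurora and Polo-like kinases, spindle motors and the spindle checkpoint, peak later, and many are controlled through a promoter element called CHR that is bound by the DREAM and MuvB complexes. Mature MC in tissues are long-lived and mostly outside the cycle, while their progenitors proliferate.

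Promoters of the list were searched for both kinds of element. RefSeq entries of GRCm38.p6, each from 250 bases before to 50 bases after a transcription start, were found for 30 of the 37 genes. Gins2, Mcm4, Tpx2, Kif20a, Ccna2, Foxm1 and Aurkb had no entry in the table and were left out of the search. The E2F-type search used the letters TTTCCCGC, TTTGGCGC, TTTCGCGC and TTTGCCGC, and the CHR search used TTTGAA, both on either strand, and neighbouring E2F-type matches on opposite strands can overlap. The promoters below come from the 12 genes described in full by array. They were printed where they held the motif of their class up to 20 bases past the start. Being chosen for the motif, they are examples and do not compare the classes. They run 5′ to 3′ on the strand of the gene, with up to 25 bases on either side of the matches, and capitals mark the matches. No print runs more than 20 bases past the start. The first 3 are S phase genes with E2F-type letters.
Mcm5 (chr8:75109331-75109392, + strand): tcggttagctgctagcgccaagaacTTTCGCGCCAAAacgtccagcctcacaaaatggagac
Mcm6 (chr1:128359720-128359840, - strand): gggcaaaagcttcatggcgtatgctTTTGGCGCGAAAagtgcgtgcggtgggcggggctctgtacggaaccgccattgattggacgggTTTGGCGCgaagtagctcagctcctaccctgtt
Cdc6 (chr11:98907988-98908045, + strand): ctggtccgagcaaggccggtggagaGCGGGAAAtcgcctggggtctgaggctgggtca
The other 2 are mitotic genes with CHR letters, which in Kif11 lie on the opposite strand and read TTCAAA.
Ccnb2 (chr9:70421535-70421746, - strand): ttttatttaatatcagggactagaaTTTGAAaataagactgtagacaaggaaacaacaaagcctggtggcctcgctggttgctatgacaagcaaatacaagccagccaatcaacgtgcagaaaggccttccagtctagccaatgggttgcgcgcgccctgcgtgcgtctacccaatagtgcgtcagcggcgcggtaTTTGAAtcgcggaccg
Kif11 (chr19:37376338-37376393, + strand): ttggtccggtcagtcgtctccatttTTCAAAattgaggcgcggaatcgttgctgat

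The E2F-type letters were found in 6 of 14 S phase genes (42.9%) and in 1 of 16 mitotic genes (6.25%), Cdk1, against 2.61% of 27025 genes with an entry. The CHR letters were found in 12 of 16 mitotic genes (75%) and in 1 of 14 S phase genes (7.14%), Cdc45, against 20.2% of all genes. In Mcm5, the matches began 153 and 149 bases before the start, on opposite strands and overlapping. The CHR letters of Aurka, another mitotic gene, lay farther past the start, at bases 33 to 38, and are not printed. These matches describe letters and not bound sites. In lists of other genes, E2F-type letters were found in 11 of 27 further replication genes (40.7%) and 5 of 44 further mitotic genes (11.4%), and CHR letters in 5 of 27 (18.5%) and 32 of 44 (72.7%).

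All 37 genes lay above the level of genes that should be silent in MC. The 95th percentile of 1080 olfactory receptor clusters was 2.96, and the group mean of every gene exceeded it in every group. The median over the 16 S phase genes was 6.63 to 6.92 in the 4 tumor arrays, 6.11 and 6.12 in the peritoneal placebo arrays and 5.20 and 5.39 in the peritoneal DC101 arrays. The median over the 21 mitotic genes was 7.03 to 7.17 in the tumor arrays, 5.38 and 5.61 in the peritoneal placebo arrays and 4.40 and 4.99 in the peritoneal DC101 arrays. Both classes therefore ran in the same order over the groups, with tumor MC of either treatment highest and peritoneal MC of DC101-treated mice lowest, while the median over all clusters stayed between 3.34 and 3.46 in every array. In these medians the step between compartments was wider for the mitotic class.

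**Figure D1:**
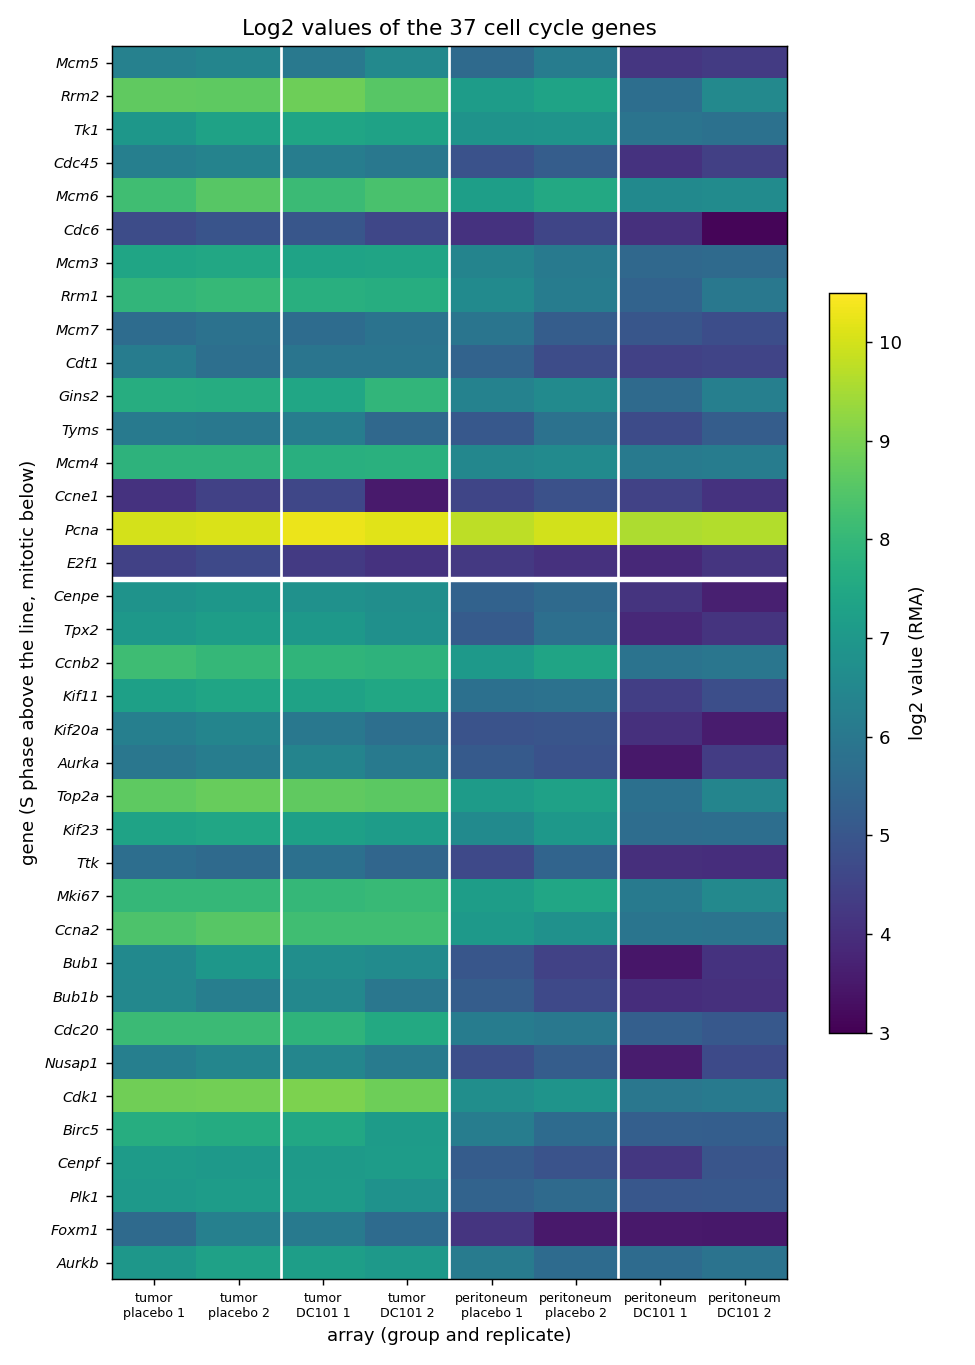
Heat map of the log2 values of the 37 measured genes (vertical axis, S phase genes above the white line and mitotic genes below it) in each of the 8 arrays (horizontal axis, by group and replicate). Colour gives the log2 value, from 3.09 (Cdc6, peritoneum DC101 replicate 2) to 10.27 (Pcna, tumor DC101 replicate 1), and the 4 tumor columns look alike while the peritoneal DC101 columns are darkest for most genes.

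The sorted populations were checked against markers of MC and of other cells. Of 11 measured MC markers, all lay above the median cluster in every group, and their summed level, as log2 of the sum of linear values, was 13.31 to 13.76 in tumor arrays and 13.30 to 13.66 in peritoneal arrays. With DC101, 9 of the 11 had negative differences in peritoneal MC, against 52.4% of clusters. The mast cell protease genes Cma1 and Mcpt4 and the carboxypeptidase gene Cpa3 did not pass the test between the treatments in either compartment, and Tph1, an enzyme of serotonin synthesis, fell by 1.67 ± 0.36 (SE, adjusted p = 0.0348, limma) with DC101 in peritoneal MC, a call that was lost without any 1 of the 4 peritoneal arrays. Markers of other cells were present as well. The B cell markers summed to 11.56 and 11.61 in peritoneal placebo arrays, with 5 of 5 above the olfactory level, and to 5.18 to 5.80 in tumor arrays, where 1 of 5 (placebo) and 2 of 5 (DC101) lay at or under the olfactory level. Fibroblast markers summed to 11.26 to 11.36 in tumor arrays and to 6.15 to 7.89 in peritoneal arrays, and epithelial and tumor cell markers to 10.49 to 11.05 and 6.35 to 8.35. The higher sum of the latter in tumor MC came from Krt8 and Krt18, since with placebo 2 of the 5 genes were higher there and 3 had negative differences, 1 of them called. Transcripts of Kdr, which encodes VEGFR2, were within the range of the olfactory clusters in all 4 groups, with group means of 2.49 to 2.77.

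Next, DC101 was compared with placebo in peritoneal MC. With DC101, 12 of the 37 genes fell and none rose, at an adjusted p under 0.05 with limma and Benjamini-Hochberg adjustment over all 24111 clusters. Over all clusters, 2.10% were lower and 2.48% were higher at this threshold. The 12 genes were Mcm5 and Tk1 of the 16 S phase genes and Cenpe, Tpx2, Ccnb2, Kif11, Kif20a, Top2a, Kif23, Mki67, Ccna2 and Cdc20 of the 21 mitotic genes. Whether the classes differ in how often they fell was not tested. The fitted difference was below 0 for 37 of 37 genes, against 52.4% of all clusters, with a median of -0.67 for S phase genes, -0.99 for mitotic genes and -0.02 for all clusters. At an unadjusted p under 0.05 and a difference of at least 1 in size, 13 genes were lower, against 2.81% of clusters, and in 32 of 37 genes both DC101 arrays lay under both placebo arrays, against 24.6% of clusters. Since sorted populations were measured in bulk, fewer cycling cells and less RNA of these genes per cell cannot be told apart.

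The count depended on single arrays. It was 6 without peritoneum placebo replicate 1 (5 of them among the 12), 0 without peritoneum placebo replicate 2, 2 without peritoneum DC101 replicate 1 (both among the 12) and 10 without peritoneum DC101 replicate 2 (7 among the 12), and 2 (Mcm5 and Cenpe) with the 4 peritoneal arrays alone. In each of the 12 genes both peritoneal DC101 arrays lay under both peritoneal placebo arrays. None of them could therefore change its direction in these fits, and the kept direction is no sign of stability. An exact permutation test of 2 arrays against 2 cannot give a p below 0.333, so these calls rest on the spread that limma shares between genes.

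**Figure D2:**
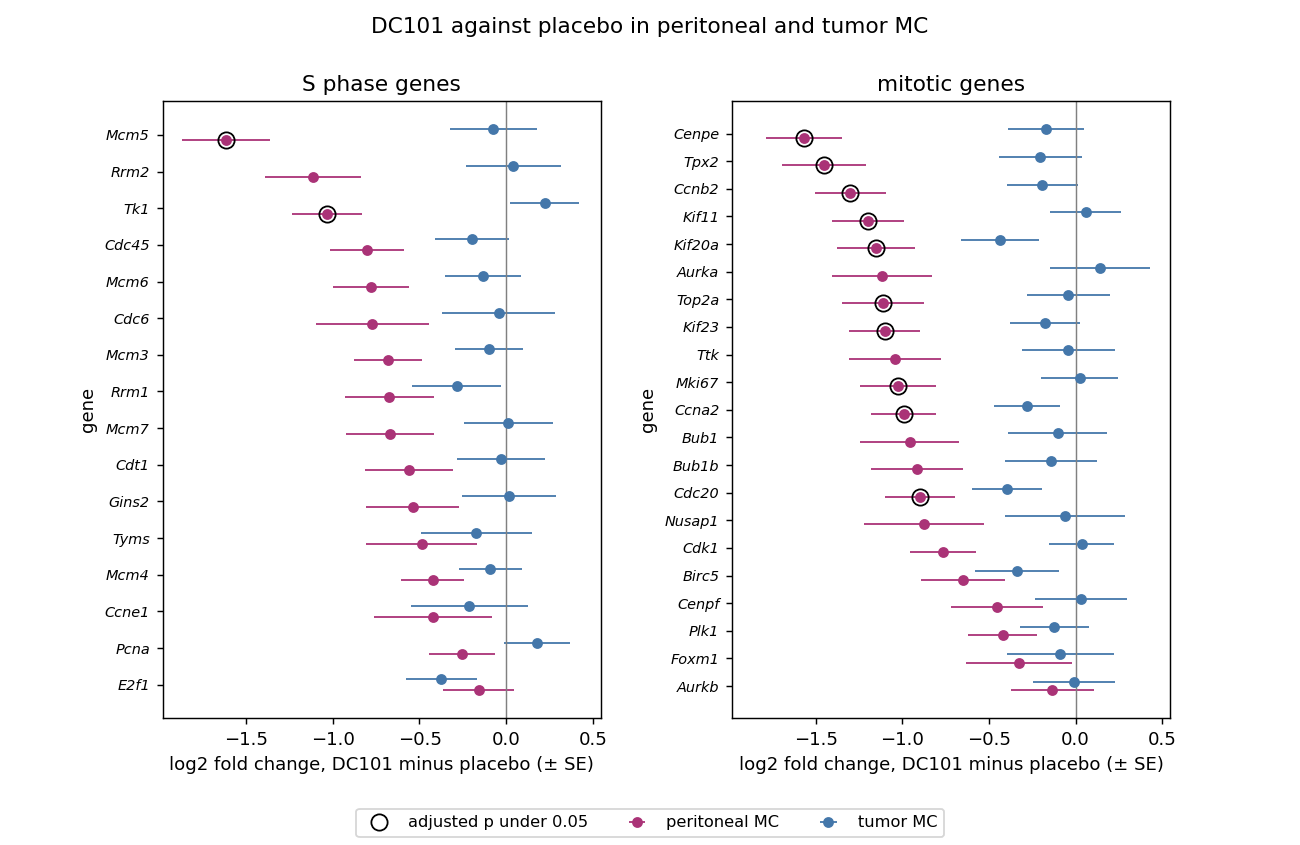
Log2 fold change of DC101 over placebo (horizontal axis, points, with bars of 1 standard error) for each of the 37 genes (vertical axis) in peritoneal and tumor MC, with S phase genes in the left panel and mitotic genes in the right panel and rings around differences with an adjusted p under 0.05. All peritoneal points lie below 0, down to -1.62 for Mcm5, and the tumor points lie between -0.44 and 0.22.

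Among the S phase genes, the replicative helicase gave the largest and some of the smaller differences. Mcm5, a subunit of the MCM ring, measured 5.59 and 6.14 in peritoneal placebo arrays, 4.19 and 4.31 in peritoneal DC101 arrays, 6.29 and 6.42 in tumor placebo arrays and 6.03 and 6.53 in tumor DC101 arrays. It fell by 1.62 ± 0.25 on the log2 scale (SE, 3.07-fold lower, adjusted p = 0.0108, limma), and both peritoneal DC101 arrays lay more than a log2 unit under all other arrays. Mcm6, another subunit of the ring, measured 7.21 and 7.52 with placebo and 6.56 and 6.61 with DC101 in the peritoneum, 8.19 and 8.54 with placebo and 8.11 and 8.35 with DC101 in the tumor. Its groups did not overlap in the peritoneum, but the difference of -0.78 ± 0.22 missed the threshold (adjusted p = 0.0837). The other ring subunits Mcm3, Mcm7 and Mcm4 had differences of -0.68, -0.67 and -0.42 with adjusted p-values of 0.0881 to 0.250. Cdc45, which joins the ring to form the active helicase, measured 4.90 and 5.22 with placebo and 4.09 and 4.42 with DC101 in the peritoneum, and 6.24 and 6.35 with placebo and 6.19 and 6.01 with DC101 in the tumor. Here too the peritoneal groups were separate, with a difference of -0.80 ± 0.21 (adjusted p = 0.0717). Gins2, a subunit of the GINS complex, differed by -0.54 ± 0.27 (adjusted p = 0.330).

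The licensing factors were less uniform. Cdc6, which loads the ring onto origins, measured 4.11 and 4.56 in peritoneal placebo arrays and 4.04 and 3.09 in peritoneal DC101 arrays, with 4.74 and 4.94 in tumor placebo arrays and 5.01 and 4.59 in tumor DC101 arrays. One peritoneal DC101 array was close to a placebo array and the other lay about a log2 unit lower, and the difference of -0.77 ± 0.33 had an adjusted p of 0.241. Its partner Cdt1 differed by -0.56 ± 0.25 (adjusted p = 0.277). Pcna, the sliding clamp of DNA polymerases, measured 9.74 and 9.98 with placebo and 9.57 and 9.64 with DC101 in the peritoneum, 10.01 and 10.06 with placebo and 10.27 and 10.16 with DC101 in the tumor. The DC101 arrays thus lay under the placebo arrays in the peritoneum and above them in the tumor, with differences of -0.26 and 0.18, and the difference between the compartments did not pass (adjusted p = 0.556).

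Nucleotide supply was represented by 4 genes, of which 1 fell. Tk1, thymidine kinase, measured 6.86 and 6.87 in peritoneal placebo arrays and 5.88 and 5.79 in peritoneal DC101 arrays, and 6.97 and 7.32 in tumor placebo arrays and 7.42 and 7.31 in tumor DC101 arrays. It fell by 1.03 ± 0.20 (SE, 2.05-fold lower, adjusted p = 0.0236, limma), with close replicates in both peritoneal groups. Rrm2, the regulated subunit of ribonucleotide reductase, measured 7.13 and 7.34 with placebo and 5.71 and 6.53 with DC101 in the peritoneum, against 8.66 and 8.63 with placebo and 8.83 and 8.54 with DC101 in the tumor. The difference of -1.12 ± 0.28 was larger than that of Tk1, but the DC101 arrays were farther apart and the adjusted p was 0.0565. Rrm1, the large subunit, and Tyms, thymidylate synthase, differed by -0.67 ± 0.26 and -0.49 ± 0.32 (adjusted p = 0.191 and 0.481). The regulators of entry into S phase were among the smaller differences, with -0.42 ± 0.34 for Ccne1, which encodes cyclin E1, and -0.16 ± 0.21 for the transcription factor gene E2f1 (adjusted p = 0.585 and 0.752).

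Among the mitotic genes, motors and spindle factors gave many of the largest differences. Cenpe, a kinesin that brings chromosomes to the spindle equator, measured 5.37 and 5.58 in peritoneal placebo arrays, 4.14 and 3.67 in peritoneal DC101 arrays, 6.85 and 6.98 in tumor placebo arrays and 6.79 and 6.70 in tumor DC101 arrays. It fell by 1.57 ± 0.22 (SE, 2.97-fold lower, adjusted p = 0.00693, limma), the lowest adjusted p of the 37 genes. Tpx2, which activates Aurora A on spindle microtubules, measured 5.17 and 5.74 with placebo and 3.87 and 4.12 with DC101 in the peritoneum and 7.0 and 7.17 with placebo and 6.99 and 6.78 with DC101 in the tumor. It fell by 1.45 ± 0.24 (2.74-fold lower, adjusted p = 0.0128), with a gap of more than a log2 unit between the peritoneal groups. Kif11, the kinesin that keeps spindle poles apart, measured 5.76 and 5.83 with placebo and 4.40 and 4.79 with DC101 in the peritoneum and 7.27 and 7.42 with placebo and 7.33 and 7.47 with DC101 in the tumor. It fell by 1.20 ± 0.21 (2.30-fold lower, adjusted p = 0.0150). The cytokinesis kinesin Kif20a measured 4.90 and 4.99 with placebo and 4.04 and 3.56 with DC101 in the peritoneum and 6.22 and 6.40 with placebo and 6.00 and 5.75 with DC101 in the tumor. It fell by 1.15 ± 0.22 in peritoneal MC (adjusted p = 0.0240), and in tumor MC its DC101 arrays also lay under its placebo arrays, with a difference of -0.44 ± 0.22, which did not pass (adjusted p = 0.9996). Kif23, the other kinesin of cytokinesis, fell by 1.10 ± 0.20 (adjusted p = 0.0197). The spindle protein gene Nusap1 differed by -0.88 ± 0.35 (adjusted p = 0.210).

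Both measured mitotic cyclins, Ccnb2 and Ccna2, fell. Ccnb2, a B-type cyclin of mitotic entry, measured 7.02 and 7.39 in peritoneal placebo arrays and 5.86 and 5.95 in peritoneal DC101 arrays, and 8.16 and 7.99 in tumor placebo arrays and 7.91 and 7.85 in tumor DC101 arrays. It fell by 1.30 ± 0.20 (SE, 2.46-fold lower, adjusted p = 0.0110, limma) with close values in the peritoneal DC101 arrays. Ccna2, the A-type cyclin that acts in S phase and G2, fell by 0.99 ± 0.19 (adjusted p = 0.0223), and Cdc20, which activates the ubiquitin ligase that destroys mitotic cyclins, fell by 0.90 ± 0.20 (adjusted p = 0.0415). Their kinase partner Cdk1 differed by -0.77 ± 0.19 and missed the threshold (adjusted p = 0.0572). Top2a, the topoisomerase that untangles sister chromatids, and Mki67, the widely used proliferation marker that coats mitotic chromosomes, fell by 1.11 ± 0.24 and 1.02 ± 0.22 (adjusted p = 0.0345 and 0.0347).

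None of the mitotic kinases or checkpoint genes of the list passed the test. Aurka, the Aurora kinase of spindle poles, measured 5.13 and 4.90 in peritoneal placebo arrays and 3.48 and 4.32 in peritoneal DC101 arrays, and 5.98 and 6.17 in tumor placebo arrays and 6.39 and 6.05 in tumor DC101 arrays. The peritoneal groups did not overlap, but the DC101 arrays were far apart and the difference of -1.12 ± 0.29 had an adjusted p of 0.0657 (limma). The kinases Ttk, Bub1 and Bub1b of the spindle checkpoint differed by -1.04, -0.96 and -0.92 with adjusted p-values of 0.0629 to 0.100. Smaller differences were measured for the passenger gene Birc5 (-0.65), the kinetochore gene Cenpf (-0.45), Polo-like kinase Plk1 (-0.42), the transcription factor gene Foxm1 (-0.32) and Aurkb (-0.14), the Aurora kinase of the passenger complex, with adjusted p-values of 0.184 to 0.828. The interval of Aurkb (-0.68 to 0.41) contained 0 and also a fall of 0.68, so a fall of that size could not be told from none with 2 arrays per group.

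**Figure D3:**
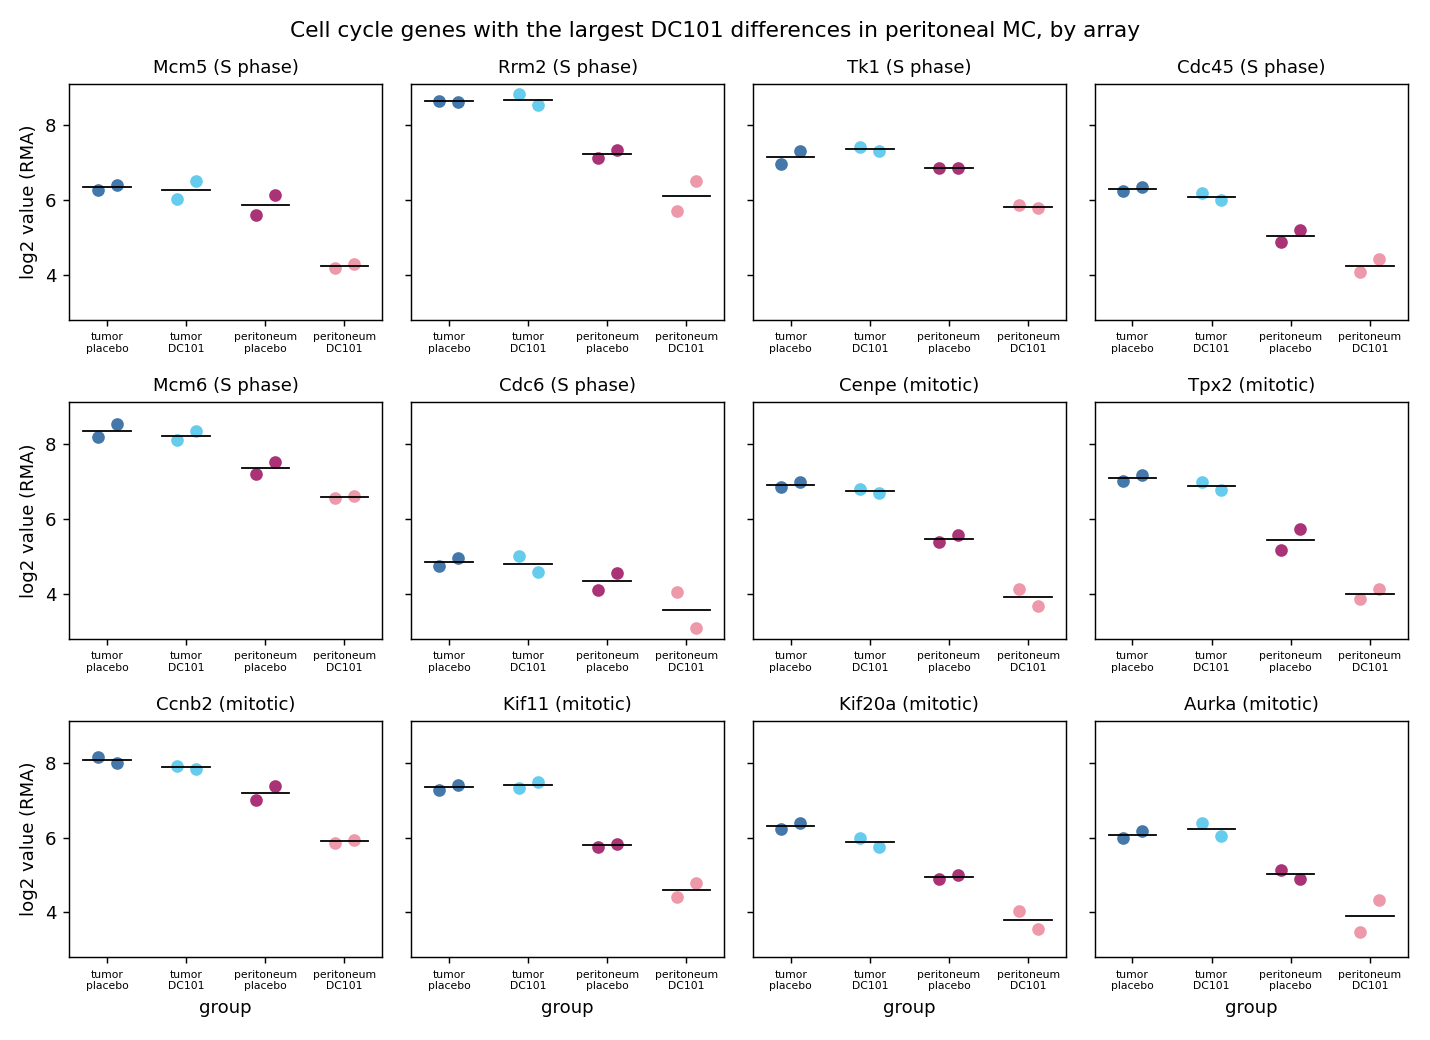
Log2 values of the 12 genes described by array (points, 1 per array, vertical axis) in the 4 groups (horizontal axis), with lines at the group means. In each panel the tumor placebo and tumor DC101 points lie close together and the peritoneal DC101 points lie lowest, from 3.09 (Cdc6) to 6.61 (Mcm6).

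Genes that fell were found both with and without the promoter letters of their class. The mitotic genes Tpx2, Kif20a and Ccna2, which also fell, had no promoter entry and are not counted here. Of 12 mitotic genes with the CHR letters 6 fell, and of 4 without them 1 fell (Cenpe), against 2.10% of all clusters. Their median differences were -1.03 and -0.92. Of 6 S phase genes with E2F-type letters 1 fell (Mcm5), and of 8 without them 1 fell (Tk1), with medians of -0.73 and -0.58. With these numbers the shares were not tested against each other.

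Markers of several other cells also differed between the peritoneal groups. Over all clusters, 2.10% were lower and 2.48% higher with DC101 at an adjusted p under 0.05. The summed level of 11 T and NK cell markers was 10.64 and 10.71 with placebo and 8.92 and 9.32 with DC101, 7 of 11 fell, and 3 of 11 lay at or under the olfactory level with DC101 against 0 with placebo. Among them, Il2rb, a receptor subunit of activated T cells and NK cells, fell by 2.88 ± 0.35 and Ncr1, an NK cell receptor, by 2.59 ± 0.27 (adjusted p = 0.00407 and 0.00231, limma). The B cell markers summed to 11.56 and 11.61 with placebo and 10.36 and 10.86 with DC101, and 2 of 5 fell, Cd22 and Fcrla. In the other direction, the macrophage markers summed to 11.87 and 12.02 with placebo and 12.63 and 13.04 with DC101, with 3 of 11 that rose (Cd163, Mrc1 and C1qa) and 2 that fell (Marco and Fcgr1), and the eosinophil markers summed to 6.72 and 6.73 with placebo and 8.81 and 9.40 with DC101, with 3 of 5 that rose. Among mesothelial markers, which summed to 6.49 and 6.52 with placebo and 4.62 and 5.88 with DC101, 4 of 4 had negative differences and Msln fell by 1.97 ± 0.25 (adjusted p = 0.00492). Fibroblast markers summed to 7.72 and 7.89 with placebo and 6.15 and 6.63 with DC101, 5 of 5 had negative differences, and Dcn fell from a mean of 7.31 to 5.31 (adjusted p = 0.00286). With limma, 0 of 5 epithelial, 6 neutrophil and 4 endothelial markers passed. At an unadjusted p under 0.05, 1, 0 and 1 did so, against 18.9% of clusters in either direction. The MC markers summed to 13.51 and 13.66 with placebo and 13.30 and 13.43 with DC101. Their medians were 9.80 and 9.52 with placebo and 8.96 and 9.03 with DC101, and 9 of 11 had negative differences. With 1 array left out, 2 to 7 T and NK cell markers, 4 or 5 macrophage markers, 2 eosinophil markers and 0 to 2 B cell markers were called, with the lowest counts for lymphocytes without peritoneum placebo replicate 2. The part of these cells in the lower cell cycle values was not tested.

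**Figure D4:**
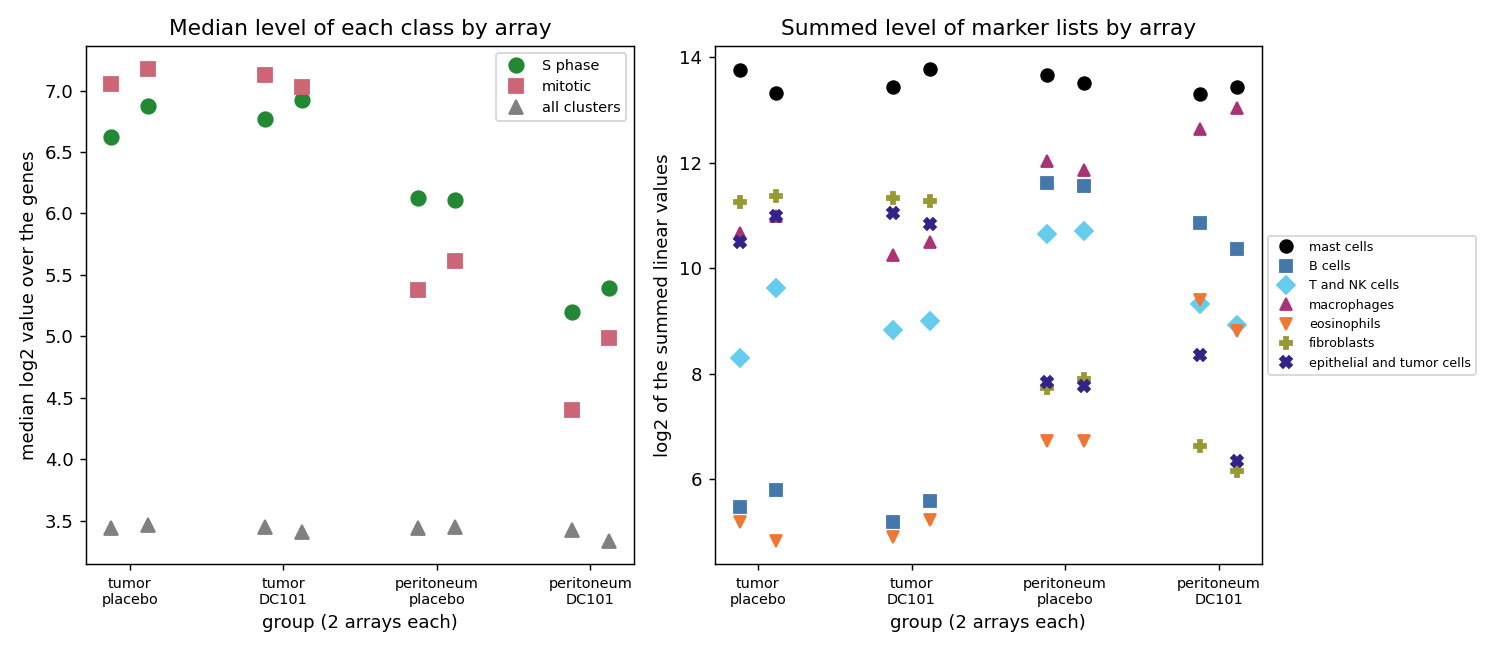
Left, median log2 value (vertical axis) over the S phase genes, the mitotic genes and all clusters in each array, by group (horizontal axis). Right, log2 of the summed linear values (vertical axis) of 7 marker lists in the same arrays. The class medians are lowest in the peritoneal DC101 arrays (4.40 to 5.39), where T and NK cell and B cell markers are lower and macrophage and eosinophil markers higher than in the peritoneal placebo arrays.

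In tumor MC, no cell cycle gene passed the test between DC101 and placebo. At an adjusted p under 0.05 with limma 0 of 37 genes passed, as did 0 of all clusters (0%), and at an unadjusted p under 0.05 it was 0 of 37, against 5.04% of clusters. At an unadjusted p under 0.05 and a difference of at least 1 in size, 0 genes were called, against 0.680% of clusters. In 13 of 37 genes both DC101 arrays lay under both placebo arrays, against 20.6% of clusters, and in 1 gene, Pcna, they lay above. The fitted difference was below 0 for 27 of 37 genes (73.0%), against 54.7% of all clusters. Fitted differences ran from -0.44 (Kif20a) to 0.22 (Tk1), with medians of -0.08 for S phase genes, -0.10 for mitotic genes and -0.03 for all clusters. The 95% intervals of the tumor difference were wide. They were -0.65 to 0.50 for Mcm5 and -0.67 to 0.32 for Cenpe, which have the largest peritoneal differences of their classes. For other genes the tumor interval included the peritoneal difference, as for Rrm1 (-0.86 to 0.29, peritoneal difference -0.67) and Birc5 (-0.89 to 0.21, peritoneal difference -0.65).

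The difference between the compartments was then tested as an interaction, the peritoneal DC101 difference minus that in the tumor. It passed an adjusted p under 0.05 with limma for 0 of 37 genes, against 0.805% of clusters, so for no single gene was the response shown to differ between peritoneal and tumor MC. At an unadjusted p under 0.05, 14 genes passed, all with the lower value in the peritoneum, against 13.1% of clusters in either direction. With a size of at least 1 in addition there were 11 genes, 3 of S phase and 8 of mitosis, against 3.54% of clusters. The smallest adjusted p-values were 0.0834 for Cenpe (-1.40 ± 0.31), 0.0885 for Tk1 (-1.26 ± 0.28), 0.0959 for Mcm5 (-1.54 ± 0.36) and 0.0971 for Kif11 (-1.26 ± 0.29). Medians were -0.57 for S phase genes, -0.82 for mitotic genes and 0.01 for all clusters.

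Compared between compartments, cell cycle genes were higher in tumor MC than in peritoneal MC. With placebo, 26 of 37 genes were higher in tumor MC, 8 of 16 S phase genes and 18 of 21 mitotic genes, at an adjusted p under 0.05 with limma, against 11.3% of clusters, and none was lower. The median difference was 0.74 for S phase genes, 1.49 for mitotic genes and -0.01 for all clusters. The mitotic kinase gene Cdk1 measured 8.88 and 8.90 in tumor placebo arrays and 6.70 and 6.88 in peritoneal placebo arrays, a difference of 2.10 ± 0.19 (SE, 4.29-fold higher, adjusted p = 7.96e-05). Foxm1, a transcription factor of mitotic genes, measured 5.58 and 6.27 against 4.15 and 3.50, 2.10 ± 0.31 higher (adjusted p = 0.00132). No array of either gene overlapped with the other compartment. Cdc20, Cenpf and Bub1 were higher by 2.04, 2.03 and 2.03, and the S phase genes Rrm1, Rrm2 and Mcm4 by 1.62, 1.41 and 1.31. The mitotic genes that did not pass were Kif23, Ttk and Mki67, at 0.59, 0.62 and 0.68 (adjusted p = 0.0773, 0.156 and 0.0616).

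Of the 8 S phase genes that did not pass, 7 had positive differences, from 0.17 for Mcm7 to 0.59 for Tyms, and Ccne1 had -0.42 ± 0.34 (adjusted p = 0.476). Ccne1 was the gene of the list with a lower mean in tumor MC. Pcna and Tk1, which stood at 10.04 and 7.15 in tumor MC, differed between compartments by 0.18 and 0.28 with placebo.

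With DC101, 34 of 37 genes were higher in tumor MC, 13 of 16 S phase and 21 of 21 mitotic genes, against 12.4% of clusters, and none was lower. Medians were 1.59 for S phase genes, 2.29 for mitotic genes and -0.03 for all clusters. The 26 genes higher with placebo were all among the 34, and the other 8 were Mcm5, Tk1, Cdc6, Mcm7, Pcna, Kif23, Ttk and Mki67. For none of these 8 did the difference between compartments change with treatment past the threshold, since that change is the interaction given above. The largest differences were 2.90 for Cdk1, 2.89 for Bub1, 2.89 for Tpx2 and 2.84 for Cenpe, or 7.14-fold to 7.47-fold. Ccne1, E2f1 and Tyms did not pass, at -0.21, 0.17 and 0.90 (adjusted p = 0.752, 0.640 and 0.0802). Compartment moved together with other cells in the sort. Fibroblast markers were higher in tumor MC in 5 of 5 genes, with Dcn at 10.81 against 7.31 with placebo, and B cell markers were lower in 5 of 5. Of 11 macrophage markers, 5 were lower with placebo, and 10 were lower and 1 higher with DC101. Of 11 T and NK cell markers, 4 were lower with placebo, and 5 were higher and 1 lower with DC101. Over all 24111 clusters, 1998 and 2300 were lower. In tumor arrays, macrophage markers still summed to 10.25 to 10.98 and neutrophil markers to 10.46 to 11.37. Epithelial and tumor cell markers were mixed. The keratin genes Krt8 and Krt18 were higher in tumor MC, at 9.65 and 9.76 against 6.14 and 5.89, Krt7 was lower (3.43 against 4.83, adjusted p = 0.00732, limma), and Epcam and Cdh1 did not pass, with 2.57 and 4.64 in tumor MC and 4.64 and 5.22 in peritoneal MC. The part of these cells in the differences between compartments was not tested.

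Other genes of the cycle were read from lists of the same pathway. In peritoneal MC, 7 of 31 further replication genes fell with DC101 and none rose, against 2.10% of clusters that were lower, with a median difference of -0.75. Orc6, a subunit of the origin recognition complex, fell by 1.75 ± 0.19, and Lig1, the ligase that joins Okazaki fragments, by 1.76 ± 0.26 (adjusted p = 0.00286 and 0.00895, limma). Dut, which keeps uracil out of DNA, and Pole, the catalytic subunit of DNA polymerase epsilon, fell by 1.05 ± 0.20 and 1.19 ± 0.24 (adjusted p = 0.0221 and 0.0291). Of 55 further mitotic genes 10 fell and none rose, against the same 2.10%, with a median of -0.56. These included the condensin genes Ncaph and Smc2 (-1.31 ± 0.20 and -1.04 ± 0.18), the chromokinesin Kif4 (-1.16 ± 0.19) and Cdca3 (-1.10 ± 0.19), with adjusted p-values of 0.00979 to 0.0158. Both counts depended on single arrays, with 1 replication gene and 0 mitotic genes called without peritoneum placebo replicate 2, and 2 and 1 with the 4 peritoneal arrays alone. Without peritoneum placebo replicate 1 they were 4 and 2, without peritoneum DC101 replicate 1 they were 3 and 2, and without either tumor DC101 array 3 and 6. Without peritoneum DC101 replicate 2 they were 5 and 4.

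Upstream of S phase, 3 of 8 genes of cyclin D and G1 kinases fell in peritoneal MC and none rose, against 2.10% of clusters that were lower. Ccnd2, a D-type cyclin that couples growth factor signals to the cycle, measured 8.42 and 8.59 with placebo and 7.07 and 6.89 with DC101 in the peritoneum, and 7.78 and 7.51 with placebo and 7.84 and 8.10 with DC101 in the tumor. It fell by 1.53 ± 0.21 (adjusted p = 0.00646, limma) in the peritoneum, and its interaction of -1.85 ± 0.29 had an adjusted p of 0.0341, though it passed in 0 of 8 fits with 1 array left out. Myc, a transcription factor gene of growth, fell by 1.47 ± 0.24 in the peritoneum and stood 0.49 ± 0.24 higher with DC101 in the tumor, where it did not pass, with an interaction of -1.96 ± 0.34 (adjusted p = 0.0447) that passed in 1 of the 8 such fits. Both genes were named for their low adjusted p in the peritoneal comparison, which is part of the interaction. Ccnd1 fell by 1.01 ± 0.22 (adjusted p = 0.0382), and Ccnd3 had 0.51 ± 0.24 (adjusted p = 0.286). Orc6 also passed in the interaction, at -1.77 ± 0.28 (adjusted p = 0.0318), and likewise in 1 of 8. With either peritoneal placebo array or peritoneum DC101 replicate 2 left out, 1 of the 3 lower genes of this list was called in the peritoneal comparison.

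Of 14 inhibitors of the cycle, 3 rose, none fell and 11 did not pass, against 2.48% of clusters that were higher, with a median of 0.58. Btg2 and Btg1, antiproliferative genes, rose by 1.83 ± 0.33 and 1.28 ± 0.21 (adjusted p = 0.0174 and 0.0132, limma), and Cdkn1b, which encodes the kinase inhibitor p27, by 0.79 ± 0.18 (adjusted p = 0.0484). Ccng2, an unconventional cyclin linked to cell cycle arrest, had 0.95 ± 0.23 (adjusted p = 0.0546). Leaving out peritoneum placebo replicate 2 or peritoneum DC101 replicate 1 left 0 of these calls, and without peritoneum DC101 replicate 2 there was 1. Among the E2F and DREAM factors, 0 of 15 passed, and 4 did so at an unadjusted p under 0.05 (1 higher and 3 lower), against 18.9% of clusters in either direction, with E2f8 at -0.61 ± 0.22 (adjusted p = 0.168). Of 17 genes of replication stress and repair, Rad54l fell by 0.92 ± 0.21 (adjusted p = 0.0475), against 2.10% of clusters that were lower. The other 16 did not pass and none rose, with a median of -0.55. In tumor MC, 0 genes of any of these lists passed with limma, and 0 to 2 genes per list did so at an unadjusted p under 0.05, against 5.04% of clusters. Between compartments with placebo, 11 of 31 further replication genes and 46 of 55 further mitotic genes were higher in tumor MC, against 11.3% of clusters, and none was lower.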

How the data were processed

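MC were profiled on 8 Affymetrix mouse gene arrays. The authors deposited log2 values made with RMA, for which the version was not given in the sources used here. All 8 value columns were mapped to samples by their labels. Clusters were named from the platform annotation, in which 21508 of 24111 had 1 symbol, 566 several and 2037 none, and a gene with several clusters was to be represented by that with the highest mean.

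With limma 3.58.1 in R 4.3.3, 1 mean per group was fitted to the 8 arrays (4 residual degrees of freedom, 4.93 from the prior), and contrasts were tested two-sided with Benjamini-Hochberg adjustment over 24111 clusters. An unadjusted p under 0.05 with a log2 fold change of at least 1, the form of threshold used in the study, was counted beside it. The members and lists were chosen with earlier results of these data known, so no list was tested as a set. The 12 genes given by array were the 6 of each class with the largest peritoneal DC101 difference among those called in any contrast. From each other list up to 4 genes were named by adjusted p in the peritoneal DC101 comparison. Pcna, Cdk1 and Foxm1 were also given by array, and other members with their errors, after their values were seen. Genes of other lists were also matched through RefSeq synonyms. Arrays within a group correlated at 0.974 to 0.986, and their number limits the precision. The script was tested on simulated data. Alternatives were other priors, no moderation, array weights, cyclic loess, cluster filters, a replicate block, the 4 compared arrays alone and each array left out.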

Additional observations from a re-analysis of the deposited data

Results flagged for a closer look

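The difference of the DC101 responses, peritoneal minus tumor, passed an adjusted p under 0.05 with limma for 0.805% of all clusters. It passed for 0 of the 37 cell cycle genes and for 3 genes named from the other cell cycle lists. The difference was -1.77 ± 0.28 (SE) on the log2 scale for Orc6, -1.85 ± 0.29 for Ccnd2 and -1.96 ± 0.34 for Myc. Their adjusted p-values were 0.0318, 0.0341 and 0.0447. Among the named markers of other cells the difference also passed for 8 genes. These named genes were those with the lowest adjusted p in the peritoneal DC101 comparison, up to 4 per list. That comparison is part of the difference tested here, so their passing is not independent support. The response was lower in peritoneal than in tumor MC, whatever the level, for Ncr1 (-3.22), Il2rb (-2.74), Marco (-3.57) and Dcn (-1.99), and higher for Cd163 (4.24), Mrc1 (3.68), Ccr3 (3.61) and Siglecf (3.75), with adjusted p-values of 0.0114 to 0.0478. With each of the 8 arrays left out in turn, the difference passed in 7 fits for Ncr1, 6 for Mrc1, 5 for Ccr3 and 4 for Cd163, in 2 for Il2rb and Marco, in 1 for Siglecf, Dcn, Orc6 and Myc, and in 0 for Ccnd2.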

How the results depend on the processing

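Of 224 alternative values of the counts and class medians, 217 stayed within 1.5 times the count or within the spread, and none reversed. Some of these values could not move, so the 217 overstate the stability. No measured gene had several clusters to average, and a replicate block that is balanced over the groups keeps every median. Leaving out an array outside the groups compared also keeps the median of that comparison. The exceptions to the 217 were counts. In peritoneal MC, where 12 genes fell with DC101, 0 were called with no moderation of the variances, 2 with the 4 peritoneal arrays alone, 19 when only clusters above the median cluster were tested (the 12 among them) and 0 to 10 with 1 array left out. The lowest count was that without peritoneum placebo replicate 2. The interaction, at 0, gave 1 gene with an intensity trend in the prior and 0 to 0 with 1 array left out. Fewer arrays also leave fewer degrees of freedom, and beyond that the cause was not tested. Counts of genes higher in tumor MC with 1 array left out were 20 to 26 with placebo and 31 to 34 with DC101.

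With the replicate number as a replicate block, 11 genes fell in peritoneal MC, 0 passed in tumor MC and in the interaction, and 26 and 32 were higher in tumor MC with placebo and DC101. The labels do not tell if same-numbered arrays share mice. Deviations of same-numbered arrays correlated at -0.16 in the tumor, -0.01 in the peritoneum and 0.02 between compartments with either treatment. With 2 arrays per group, these correlations cannot tell if samples were paired. Crossing the numbers of the tumor DC101 arrays, an alternative chosen after seeing the data, gave 12, 0, 0, 26 and 34. Of the 12 genes called in the main fit, 11 were among these 12. For named genes and the other lists, 1343 of 1717 alternative values kept their side of the threshold or count, 361 were weaker, 13 stronger and none reversed. Here too, some settings could not move the difference itself. RMA gives no detection call, so depth here means signal over background, and all 37 genes exceeded the olfactory level in every group.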
